A study of Homo sapiens with 18 samples.

Results

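Phosphatidylcholine is the most abundant phospholipid of most mammalian membranes, and 10 genes that act on its turnover or on glycerol 3-phosphate were followed through epithelial-mesenchymal transition (EMT) in 3 human lung cancer cell lines. The genes were taken by symbol, and all 10 were present among the 19849 genes of the expression table, each through 1 probe set. They comprise the lysophosphatidylcholine acyltransferases LPCAT1, LPCAT2, LPCAT3 and LPCAT4, the phospholipase PLA2G4A, the phosphodiesterase GPCPD1, the choline branch genes CHKA and PCYT1A, and the dehydrogenases GPD1L and GPD2. RNA of parental and mesenchymal cells of A549, HCC827 and NCI-H358 was hybridised to Affymetrix U133 Plus 2.0 arrays, with 3 arrays for each of the 6 groups and 18 in all. The mesenchymal derivatives had been grown with TGFβ at 2 ng/ml for 3 weeks according to the labels, and were put into medium lacking TGFβ the day before lysis. The study's results also give 3 weeks for the 3 lines. Its methods give ranges of exposure that include 3 weeks but run longer for HCC827 and NCI-H358 than for A549. In comparisons between lines, a different exposure and a different line therefore cannot be told apart. The parental cells grew in the same RPMI1640 medium with serum and glutamine and received no TGFβ. Every culture was an established cell line, and the labels give no drug or genetic change that differs between parental and mesenchymal cells.

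In the Kennedy pathway, choline is phosphorylated by choline kinase, activated to CDP-choline and transferred to diacylglycerol to make phosphatidylcholine. In the remodelling pathway (the Lands cycle), a phospholipase A2 removes a fatty acid to leave lysophosphatidylcholine, which an LPCAT enzyme can acylate again or a lysophospholipase can strip to glycerophosphocholine. GPCPD1 splits glycerophosphocholine into choline and glycerol 3-phosphate. Glycerol 3-phosphate is also made from dihydroxyacetone phosphate by the cytosolic dehydrogenases GPD1 and GPD1L, is oxidized by mitochondrial GPD2, and is the backbone from which new glycerolipids are built. In lung, LPCAT1 is known for its part in making surfactant phosphatidylcholine in alveolar type II cells.

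The deposited values are log2 levels from RMA (robust multi-array average), so a step of 1 is a doubling. The array medians lay between 6.31 and 6.47, the SD of the log2 differences between arrays of a group was 0.163 to 0.282, and that between parental and mesenchymal arrays of a line was 0.719 to 0.896. No pair of arrays was close to identical. Of 6 epithelial markers, 5 were lower in mesenchymal A549 (KRT7 was not called) and all 6 in mesenchymal HCC827 and NCI-H358, while all 5 markers of the mesenchymal state were higher in each line. Of 4 fibroblast genes, mesenchymal cells also had 2 higher in A549, all 4 higher in HCC827 and 3 higher in NCI-H358, and their part in the results was not tested. Of 3 lung lineage genes, NAPSA was lower in mesenchymal HCC827 (log2 fold change -4.71, limma adjusted p = 1.59e-14) and NKX2-1 in mesenchymal NCI-H358 (-1.06, adjusted p = 0.000154), while SFTPB was called in no line and 0 of the 3 were called in A549. In parental A549, NKX2-1, SFTPB and NAPSA ranked at the 12.7th, 40.4th and 43.6th percentiles of the array's genes. Fewer cells with a transcript and less of it in each cell cannot be told apart in such bulk RNA. A legend of the study describes the 3 arrays of a group as separate biological samples prepared at one time, so the p-values measure the spread between samples made together. With 3 arrays on each side, the smallest two-sided p of an exact permutation test is 0.1, and the calls therefore come from limma fitted to all genes (Benjamini-Hochberg adjusted p below 0.05).

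Most of the 10 genes fell upon EMT, and LPCAT2 was the exception that rose in each line. In A549, 9 of the 10 were called, with LPCAT2 and PLA2G4A higher and 7 genes lower, where 43.4% of all genes were called (16.6% higher and 26.8% lower). In HCC827, 8 were called, LPCAT2 higher and 7 lower, against 45.8% of all genes (20.8% higher and 25.0% lower). In NCI-H358, 7 were called, LPCAT2 higher and 6 lower, against 41.4% of all genes (21.5% higher and 19.8% lower). Over the 10 genes the log2 fold change had a median of -0.43 (A549), -0.48 (HCC827) and -0.54 (NCI-H358), beside -0.021, 0.0051 and 0.015 over all genes. The 10 genes were chosen with earlier results of these data known. Their shares and medians beside those of all genes, here and below, are therefore a description and not a test of the set.

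LPCAT2 was called higher in all 3 lines, as were 4.31% of all genes. LPCAT1, GPCPD1, GPD1L and GPD2 were called lower in all 3, as were 6.14% of all genes, although for GPD1L the call in HCC827 was lost under several settings given with that gene. With a fold change above 2 also required, 2 of the 10 genes were called in A549 (LPCAT2 and GPCPD1), 4 in HCC827 (LPCAT1, LPCAT2, GPD2 and PLA2G4A) and 3 in NCI-H358 (LPCAT1, GPCPD1 and PLA2G4A), where 8.02%, 11.5% and 9.38% of all genes passed. At an adjusted p below 1e-05 with a fold above 5, LPCAT2 alone passed in A549 and HCC827 and 0 of the 10 in NCI-H358, where 1.90%, 2.95% and 2.17% of all genes did. Parental and mesenchymal arrays did not overlap for 9, 9 and 8 of the 10 genes in A549, HCC827 and NCI-H358, as was so for 52.4%, 51.2% and 51.6% of all genes. Across the 3 lines, every one of the 9 mesenchymal arrays lay above all 9 parental arrays for LPCAT2 (1.44% of all genes) and below them for GPCPD1 and GPD2 (1.96% of all genes).

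**Figure D1:**
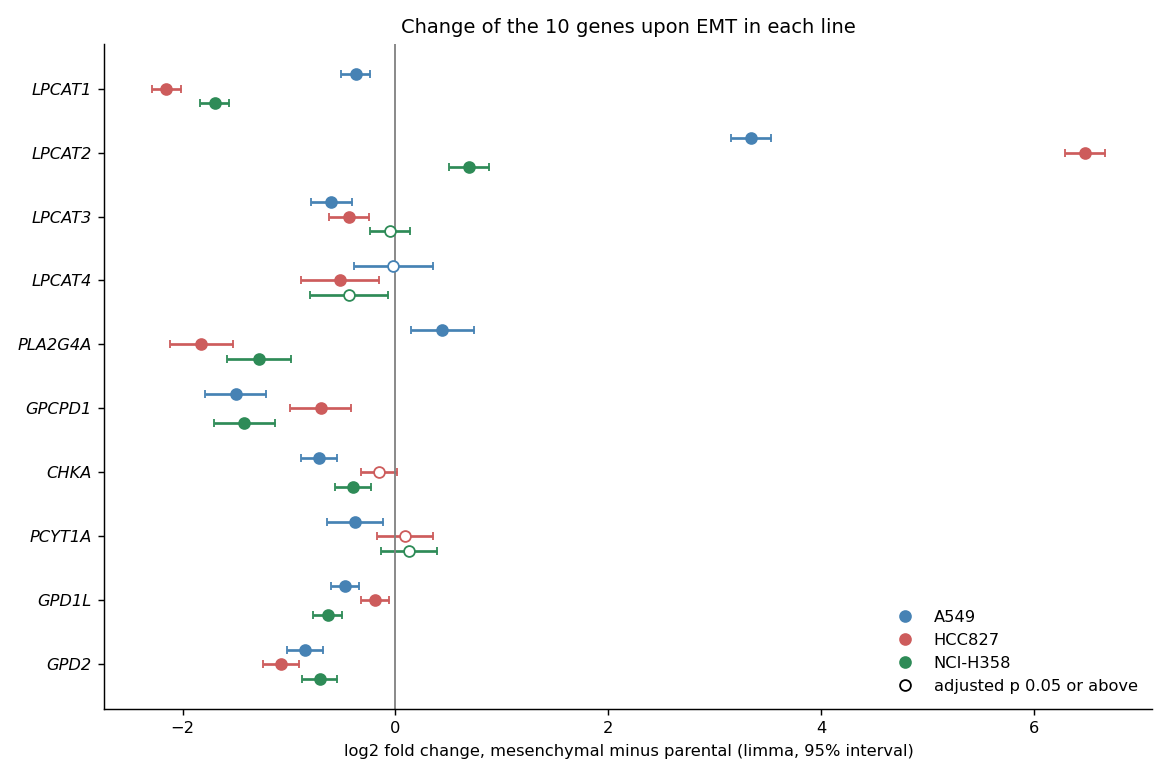
Log2 fold change upon EMT (x axis, mesenchymal minus parental) of the 10 genes (y axis) in A549, HCC827 and NCI-H358, each point the limma estimate from 3 arrays against 3 with its 95% interval, filled where the adjusted p is below 0.05. LPCAT2 lies far to the right in HCC827 (6.48) and A549 (3.35), LPCAT1 and PLA2G4A lie to the left in HCC827 and NCI-H358, and most other points lie between -1 and 0.

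LPCAT2 encodes an acyltransferase that makes phosphatidylcholine from lysophosphatidylcholine and can also form platelet-activating factor, and it had the largest change of the 10 genes in A549 and HCC827. In A549 its log2 level was 6.86, 6.86 and 6.80 on the parental arrays and 10.16, 10.24 and 10.17 on the mesenchymal ones. In HCC827 it was 4.72, 5.01 and 5.16 before and 11.45, 11.45 and 11.42 after EMT. In NCI-H358 it was already 9.64, 9.45 and 9.43 in the parental cells and reached 10.20, 10.26 and 10.15. The parental and mesenchymal arrays did not overlap in any line, and the parental arrays of NCI-H358 stood far above those of the other lines.

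The rise of LPCAT2 was 10.2-fold in A549 (95% interval 8.92 to 11.6, adjusted p = 1.02e-14 by limma), 89.1-fold in HCC827 (78.2 to 102, adjusted p = 4.58e-18) and 1.62-fold in NCI-H358 (1.42 to 1.85, adjusted p = 5.18e-06). These intervals rest on 1 SD shared by the 6 groups, whereas the SD of the HCC827 arrays was 0.223 (parental) and 0.017 (mesenchymal). Ordered by log2 fold change among the 19849 genes, LPCAT2 was the 9th from the top in HCC827, the 115th in A549 and the 1377th in NCI-H358. The 3 parental means spanned 4.55 log2 units and the 3 mesenchymal means 1.25, so the lines were closer to each other after EMT than before it. Mesenchymal NCI-H358 and A549 did not differ beyond their spread (difference 0.02, adjusted p = 0.900), whereas mesenchymal HCC827 was above both, by 1.25 over A549 (adjusted p = 1.73e-09) and by 1.24 over NCI-H358 (adjusted p = 2.38e-09). The table holds no detection call, so whether the parental HCC827 level of 4.96 exceeds the array's background was not tested. Were it at background, the rise in HCC827 would be a lower bound. So would the gaps of parental HCC827 to the other parental lines and the differences in rise between HCC827 and those lines. The gaps between mesenchymal groups do not use this level.

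LPCAT1, the acyltransferase tied to surfactant lipid, went the other way. Its log2 level in HCC827 was 12.99, 12.90 and 12.82 on the parental arrays and 10.68, 10.80 and 10.78 on the mesenchymal arrays. In NCI-H358 it was 10.53, 10.57 and 10.54, and then 8.80, 8.79 and 8.96. In A549 it was 9.93, 9.97 and 9.94, and then 9.60, 9.54 and 9.58. Parental HCC827 was thus the highest of the 6 groups by far, and in each line the mesenchymal arrays lay under all of that line's parental ones.

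LPCAT1 was 4.45-fold lower in mesenchymal HCC827 (95% interval 4.05 to 4.88, adjusted p = 3.32e-14), 3.25-fold lower in NCI-H358 (2.96 to 3.56, adjusted p = 8.70e-13) and 1.30-fold lower in A549 (1.18 to 1.42, adjusted p = 0.000111). Mesenchymal HCC827, at 10.75, still held more LPCAT1 signal than parental NCI-H358 at 10.55 or parental A549 at 9.95. Mesenchymal NCI-H358, at 8.85, was the lowest group, and no neighbouring pair in the order of the 6 groups had overlapping arrays. In the lines where LPCAT1 fell most, the lung lineage gene NAPSA was also lower after EMT in HCC827, and NKX2-1 in NCI-H358. Neither was called in the other of these lines. NKX2-1 had a log2 fold change of 0.46 in HCC827 (limma adjusted p = 0.0559), and NAPSA had -0.19 in NCI-H358 (adjusted p = 0.298). SFTPB was called in no line, and the part of these genes in the result was not tested.

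Of the 10 genes, 7 had a promoter among the RefSeq sequences of GRCh38.p14 (250 bases before to 50 after the annotated start, 8 windows because GPD2 has a pair of starts), and LPCAT2, GPCPD1 and CHKA had none. The windows of LPCAT1 and PLA2G4A are shown because both genes fell more than 2-fold in HCC827 and NCI-H358 while their promoters stood at opposite ends of the 8 windows in base composition. Both run 5′ to 3′ on the strand of the gene, with each CG dinucleotide in capitals. LPCAT1 is at chr5:1523911-1524210 on the minus strand and PLA2G4A at chr1:186828699-186828998 on the plus strand.
LPCAT1: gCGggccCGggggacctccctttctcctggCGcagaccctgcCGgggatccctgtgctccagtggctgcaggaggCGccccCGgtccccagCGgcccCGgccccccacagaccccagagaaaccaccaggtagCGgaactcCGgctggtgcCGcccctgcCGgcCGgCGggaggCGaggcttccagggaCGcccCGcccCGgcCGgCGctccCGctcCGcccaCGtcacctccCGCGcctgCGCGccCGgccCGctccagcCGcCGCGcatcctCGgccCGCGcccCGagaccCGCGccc
PLA2G4A: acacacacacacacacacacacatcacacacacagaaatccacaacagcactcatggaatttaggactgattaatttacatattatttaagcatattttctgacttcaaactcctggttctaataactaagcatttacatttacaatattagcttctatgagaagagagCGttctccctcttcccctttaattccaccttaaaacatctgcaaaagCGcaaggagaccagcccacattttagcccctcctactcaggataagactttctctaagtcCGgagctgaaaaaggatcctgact

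The LPCAT1 window was 80.0% G or C and held 38 CG dinucleotides, a number that 9.91% of the 35116 promoters reach or exceed. The PLA2G4A window was 39.7% G or C with 3 CG dinucleotides, and 24.5% of promoters have as few or fewer. The medians over all promoters were 58.7% and 14. Searched on both strands, CAGGTG (letters bound by ZEB and SNAI factors, in 20.6% of all promoters) was found once in the 8 windows, 34 bases before a start of GPD2. TGANTCA (AP-1 letters, 7.71% of promoters), GTCTAGAC (a SMAD palindrome, 0.202%) and TATAAA (11.5%) were in none of the 8. CCAAT (34.6% of promoters) was found 3 times in LPCAT3 and once in GPD1L. These are letter matches in short windows and say nothing of binding.

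LPCAT3, which prefers polyunsaturated acyl chains, changed little beside LPCAT1 and LPCAT2. In A549 its log2 level was 7.84, 7.55 and 7.38 on the parental arrays and 6.94, 7.03 and 6.99 on the mesenchymal ones, a 1.52-fold fall (95% interval 1.33 to 1.73, adjusted p = 3.32e-05). In HCC827 it was 7.38, 7.47 and 7.36 and then 7.05, 6.93 and 6.92, a 1.35-fold fall (1.19 to 1.54, adjusted p = 0.00061). In NCI-H358 it was 6.76, 6.86 and 6.79 and then 6.77, 6.68 and 6.81, and these arrays overlapped (log2 fold change -0.05, interval -0.24 to 0.14, adjusted p = 0.721). Parental NCI-H358 already lay below the mesenchymal arrays of A549 and HCC827.

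LPCAT4, also a lysophospholipid acyltransferase, had the widest spread between replicates of the family, with the mesenchymal HCC827 arrays at 5.97, 5.59 and 5.20. Its parental HCC827 arrays read 6.21, 6.13 and 5.97, and the log2 fold change was -0.52 (95% interval -0.89 to -0.15, adjusted p = 0.0201). That call was lost without HCC827 parental replicate 1 or 2 or mesenchymal replicate 3 (adjusted p 0.0516 to 0.131) and in a fit of that line alone (0.0516). It was also lost by Student's t-test, with or without adjustment (adjusted p = 0.181). In NCI-H358 the parental arrays were 6.41, 6.49 and 6.12 and the mesenchymal ones 5.86, 6.10 and 5.75, with a log2 fold change of -0.44 (-0.81 to -0.07) and an adjusted p of 0.0525. Leaving out any 1 of A549 mesenchymal replicate 2, HCC827 mesenchymal replicate 1 or 3, NCI-H358 parental replicate 3 or NCI-H358 mesenchymal replicate 2 brought this p to between 0.0249 and 0.0370, and it was 0.0379 with a trended eBayes, 0.0438 without the dimmest genes and 0.0223 in a fit of that line alone, so the NCI-H358 value sat at the threshold. In A549 the arrays overlapped, 6.71, 6.63 and 6.89 against 6.52, 7.06 and 6.59 (log2 fold change -0.02, interval -0.38 to 0.35, adjusted p = 0.950), and centring the arrays on their medians gave 0.05.

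**Figure D2:**
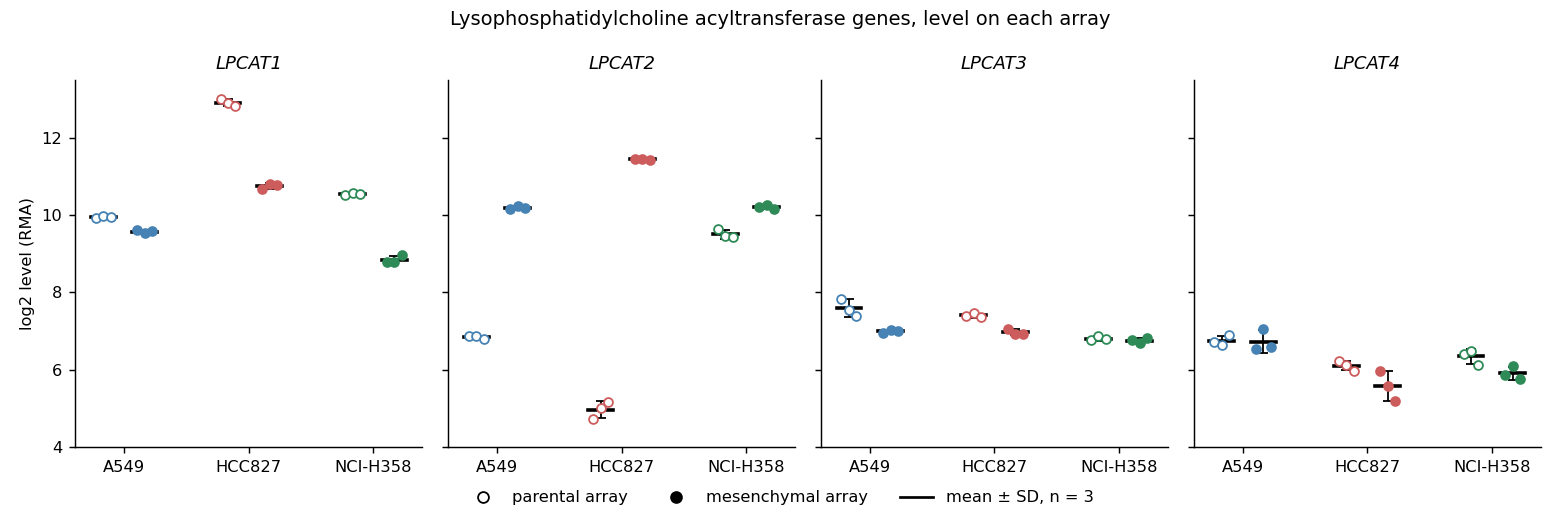
Log2 level (y axis, RMA) of LPCAT1, LPCAT2, LPCAT3 and LPCAT4 on each of the 18 arrays, by line (x axis), with parental arrays as open and mesenchymal arrays as filled points and the mean ± SD of 3 arrays as bars. LPCAT2 climbs from 4.96 to 11.44 on average in HCC827, LPCAT1 falls in every line, and LPCAT3 and LPCAT4 vary least.

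PLA2G4A encodes cytosolic phospholipase A2 alpha, which releases arachidonic acid from membrane phospholipid and leaves a lysophospholipid. Of the 10 genes it alone was called in opposite directions in different lines. In HCC827 its log2 level was 8.18, 8.07 and 7.79 on the parental arrays and 6.26, 5.87 and 6.45 on the mesenchymal ones. The NCI-H358 arrays read 9.61, 9.75 and 9.95, and then 8.56, 8.44 and 8.46. In A549 it was 9.34, 8.97 and 9.10, and then 9.48, 9.71 and 9.53. Groups did not overlap in any line, but the highest parental and the lowest mesenchymal array of A549 stood close together.

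PLA2G4A was 3.54-fold lower in mesenchymal HCC827 (95% interval 2.88 to 4.35, adjusted p = 8.13e-09) and 2.43-fold lower in mesenchymal NCI-H358 (1.98 to 2.99, adjusted p = 8.45e-07). In A549 it was 1.36-fold higher (1.10 to 1.67, adjusted p = 0.0170). That call was lost without A549 parental replicate 2 (adjusted p = 0.0819) or A549 mesenchymal replicate 2 (adjusted p = 0.0731). Student's t-test with Benjamini-Hochberg adjustment lost it too (adjusted p = 0.0701). Among mesenchymal groups the means of PLA2G4A spanned 3.38 log2 units, from 6.19 in HCC827 to 9.58 in A549, against 1.75 among parental groups. The lines were therefore further apart in this gene after EMT, the reverse of the pattern in LPCAT2.

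GPCPD1, the glycerophosphocholine phosphodiesterase, fell in all 3 lines. Its log2 level in A549 was 6.77, 6.52 and 6.71 on the parental arrays and 4.80, 5.42 and 5.28 on the mesenchymal ones. In NCI-H358 it was 7.69, 7.76 and 7.74, and then 6.45, 6.30 and 6.18. In HCC827 it was 6.92, 6.59 and 6.60, and then 5.88, 6.14 and 5.98. No parental array overlapped a mesenchymal array of its line, and parental NCI-H358 was the highest group.

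The fall of GPCPD1 was 2.83-fold in A549 (95% interval 2.32 to 3.45, adjusted p = 9.42e-08), 2.68-fold in NCI-H358 (2.19 to 3.27, adjusted p = 1.63e-07) and 1.63-fold in HCC827 (1.33 to 1.99, adjusted p = 0.000346). Parental A549 and parental HCC827 did not differ beyond their spread (difference 0.04, adjusted p = 0.839). Whether the mesenchymal A549 mean of 5.17 exceeds the array's background was not tested. Its probe set, like those of GPD2, CHKA and PCYT1A, carries the suffix by which the array design marks probes shared by several transcripts, so isoforms were not separated.

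CHKA, the alpha isoform of choline kinase, catalyses the first step of the Kennedy pathway and was lower in mesenchymal A549 and NCI-H358. Its log2 level in A549 was 7.72, 7.49 and 7.61 before and 6.95, 6.96 and 6.75 after EMT, a 1.64-fold fall (95% interval 1.46 to 1.85, adjusted p = 1.16e-06). In NCI-H358 it was 8.61, 8.72 and 8.70, and then 8.31, 8.32 and 8.21, a 1.32-fold fall (1.17 to 1.48, adjusted p = 0.000576). In HCC827 it was 8.14, 8.03 and 7.95, and then 7.91, 7.95 and 7.79 (log2 fold change -0.16, interval -0.33 to 0.01, adjusted p = 0.128). The order of lines was the same in both states, NCI-H358 above HCC827 above A549, and no neighbouring groups overlapped, although the HCC827 groups were only just apart.

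PCYT1A encodes the enzyme that forms CDP-choline, which sets the pace of the Kennedy pathway, and it was called in A549 alone. Its log2 level in A549 was 5.76, 5.50 and 5.50 on the parental arrays and 4.89, 5.36 and 5.37 on the mesenchymal ones, a 1.30-fold fall (95% interval 1.09 to 1.56, adjusted p = 0.0195). The call rested on single arrays, since the adjusted p was 0.0988 without A549 parental replicate 1 and 0.131 without A549 mesenchymal replicate 1, the lowest array. It was also lost when the arrays were centred on their medians (adjusted p = 0.0511) and in a fit of A549 alone (adjusted p = 0.0675). Student's t-test lost it too, with or without adjustment (adjusted p = 0.190). In HCC827 the arrays read 5.31, 5.57 and 5.42 and then 5.57, 5.58 and 5.43, and in NCI-H358 4.65, 4.56 and 4.87 and then 4.92, 4.69 and 4.85. Both pairs overlapped, with log2 fold changes of 0.09 (interval -0.17 to 0.36, adjusted p = 0.599) and 0.12 (-0.14 to 0.39, adjusted p = 0.494). The probe set read low in every group, at 4.69 to 5.59 on average.

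GPD2, the mitochondrial glycerol 3-phosphate dehydrogenase of the glycerophosphate shuttle, fell in all 3 lines. Its log2 level in HCC827 was 8.06, 8.09 and 8.00 on the parental arrays and 7.03, 6.93 and 6.95 on the mesenchymal ones. In A549 it was 7.79, 7.73 and 7.94, and then 6.81, 7.03 and 7.07. The NCI-H358 arrays read 8.24, 8.46 and 8.33, and then 7.62, 7.58 and 7.69. The parental arrays of each line stood clear of the mesenchymal arrays of every line, the closest being parental A549 at 7.73 and mesenchymal NCI-H358 at 7.69.

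GPD2 was 2.11-fold lower in mesenchymal HCC827 (95% interval 1.88 to 2.37, adjusted p = 4.74e-09), 1.81-fold lower in A549 (1.61 to 2.03, adjusted p = 1.32e-07) and 1.64-fold lower in NCI-H358 (1.46 to 1.84, adjusted p = 1.05e-06). Mesenchymal HCC827 and mesenchymal A549 lay at almost the same level (difference 0.0050, adjusted p = 0.966).

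GPD1L, the widely expressed cytosolic relative of glycerol 3-phosphate dehydrogenase, fell by less. Its log2 level in NCI-H358 was 8.80, 8.88 and 8.87 before and 8.23, 8.14 and 8.28 after EMT, a 1.55-fold fall (95% interval 1.42 to 1.70, adjusted p = 2.59e-07). In A549 it was 9.23, 9.29 and 9.26, and then 8.79, 8.76 and 8.80, a 1.39-fold fall (1.27 to 1.52, adjusted p = 9.23e-06). In HCC827 it was 8.31, 8.44 and 8.43, and then 8.30, 8.13 and 8.17, a 1.14-fold fall (1.04 to 1.25, adjusted p = 0.0183). The lowest parental and the highest mesenchymal HCC827 array were only just apart. The HCC827 call was lost without HCC827 parental replicate 2 or 3 or mesenchymal replicate 2 or 3 (adjusted p 0.0575 to 0.0837). It was also lost with centred arrays (0.133), with renewed quantile normalization (0.0976) and in a fit of that line alone (0.107). Student's t-test after Benjamini-Hochberg adjustment lost it too (0.104).

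**Figure D3:**
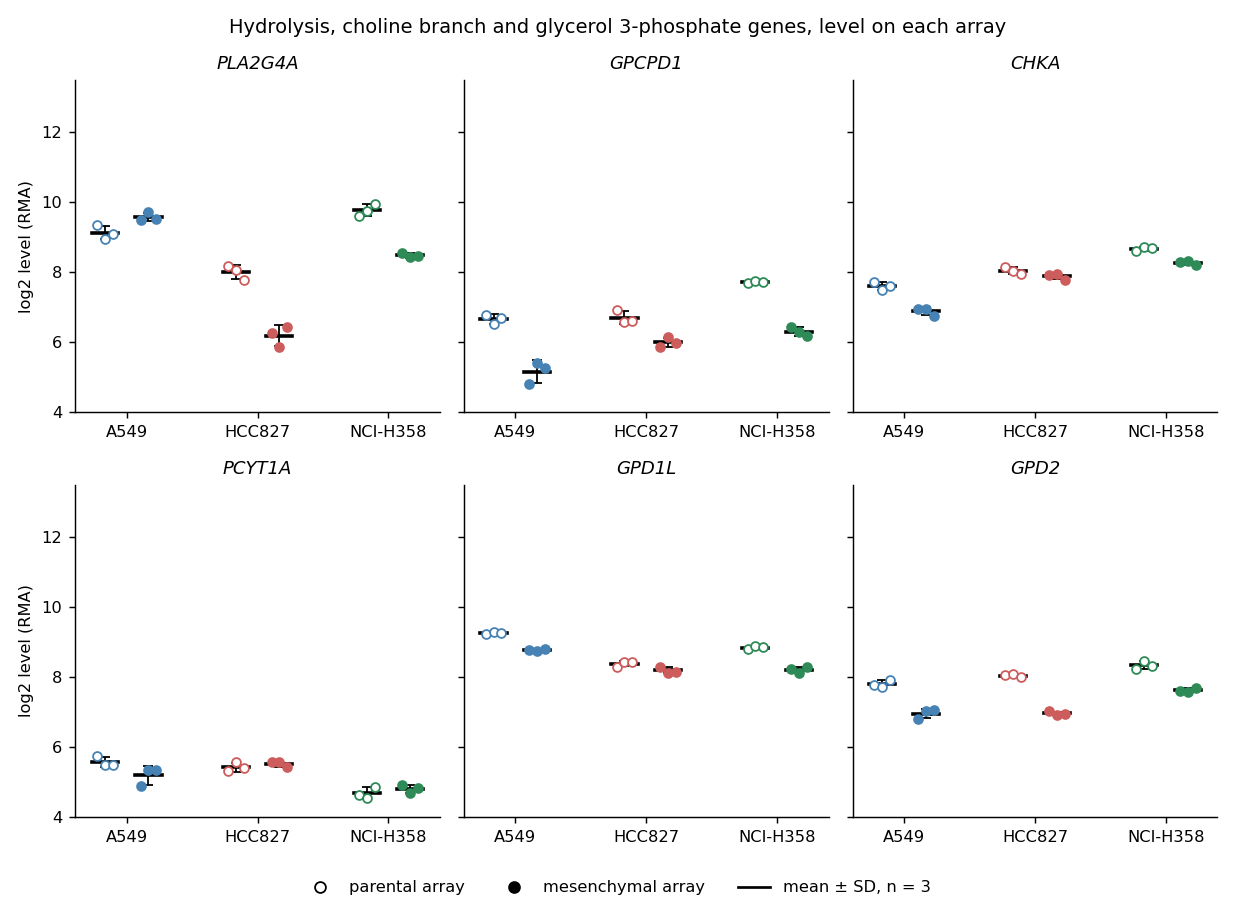
Log2 level (y axis, RMA) of PLA2G4A, GPCPD1, CHKA, PCYT1A, GPD1L and GPD2 on each array, by line (x axis), with parental arrays as open and mesenchymal arrays as filled points and the mean ± SD of 3 arrays as bars. GPD2 and GPCPD1 drop in every line, PLA2G4A drops in HCC827 and NCI-H358 and not in A549, and PCYT1A stays between 4.56 and 5.76.

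Whether the lines differed in their change was tested as a contrast of 2 fold changes in the same fit, for 3 pairs of lines that share arrays with each other. The change differed for 7 of the 10 genes between HCC827 and A549, 6 between NCI-H358 and A549 and 7 between NCI-H358 and HCC827, where 42.2%, 42.8% and 37.9% of all genes were called. With differences above 2-fold required, 3, 3 and 1 of the 10 remained beside 13.4%, 12.7% and 11.0% of all genes, and with an adjusted p below 1e-05 and over 5-fold it was LPCAT2 alone in each pair, beside 2.92%, 3.01% and 2.06%. LPCAT2 was the gene furthest apart, its log2 change in NCI-H358 being 5.78 below that in HCC827 (95% interval of the difference -6.05 to -5.52, adjusted p = 1.09e-14). LPCAT1 fell more in HCC827 than in A549 (difference -1.78, interval -1.97 to -1.59, adjusted p = 7.20e-11) and more in NCI-H358 than in A549 (difference -1.33, interval -1.51 to -1.14, adjusted p = 2.77e-09). The opposed directions of PLA2G4A gave differences of -2.27 between HCC827 and A549 (-2.69 to -1.85, adjusted p = 7.38e-08) and -1.72 between NCI-H358 and A549 (-2.14 to -1.30, adjusted p = 2.09e-06).

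Other changes differed between some pairs of lines and were not shown to differ between others. For GPD2, the NCI-H358 change minus the HCC827 change was called at 0.36 (95% interval 0.13 to 0.60, adjusted p = 0.0161), the fall being larger in HCC827. The GPD2 change was not shown to differ for NCI-H358 minus A549 (0.14, interval -0.10 to 0.38, adjusted p = 0.354) or HCC827 minus A549 (-0.22, interval -0.46 to 0.01, adjusted p = 0.127), although renewed quantile normalization brought the latter under the threshold (adjusted p = 0.0336). GPCPD1 fell less in HCC827 than in A549 (difference 0.80, interval 0.39 to 1.21, adjusted p = 0.0027) and more in NCI-H358 than in HCC827 (-0.72, interval -1.13 to -0.31, adjusted p = 0.00654). Its NCI-H358 change minus its A549 change was 0.08 (-0.33 to 0.49, adjusted p = 0.791). LPCAT4 passed in no pair of lines, and its intervals reached from -1.02 to 0.60. Leaving out HCC827 mesenchymal replicate 1 brought LPCAT4 under the threshold between HCC827 and A549 (difference -0.70, adjusted p = 0.0201), and leaving out A549 mesenchymal replicate 1 did so for GPD2 between the same lines (adjusted p = 0.0334).

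**Figure D4:**
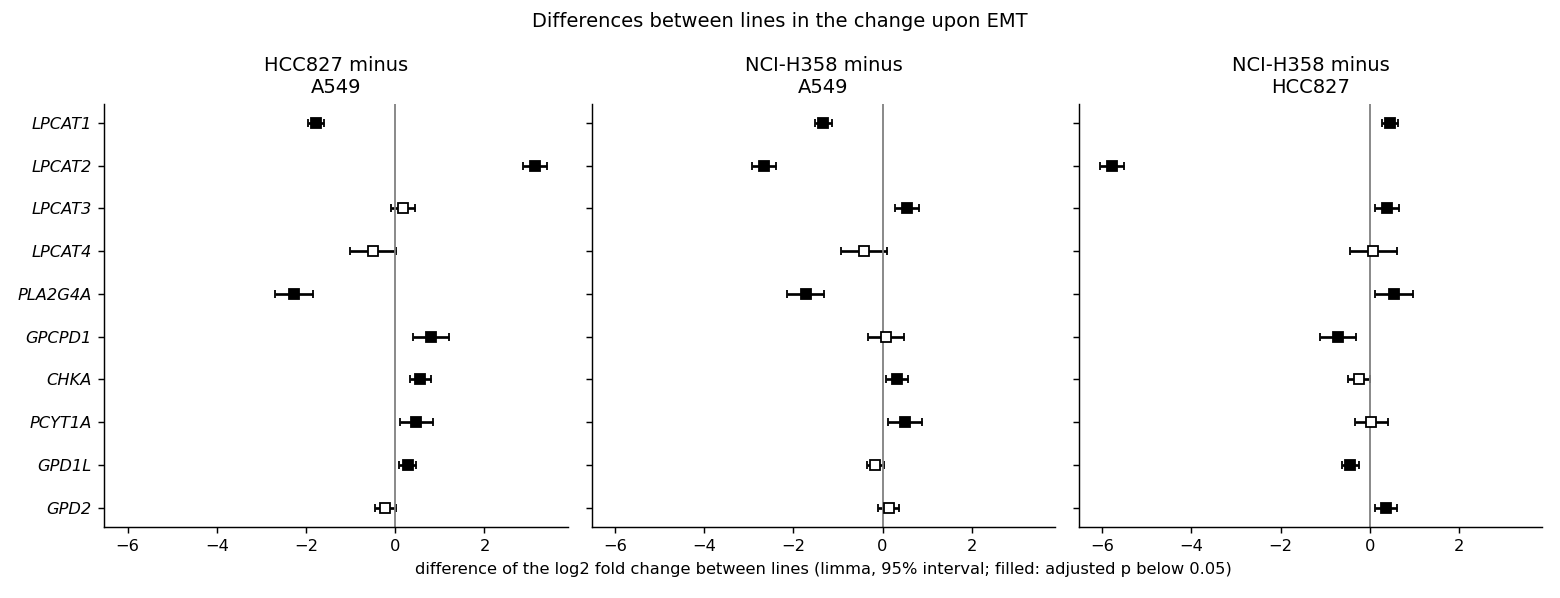
Difference between lines in the log2 fold change upon EMT (x axis) for the 10 genes (y axis), in 3 panels for HCC827 minus A549, NCI-H358 minus A549 and NCI-H358 minus HCC827, with 95% intervals from limma and filled squares where the adjusted p is below 0.05. LPCAT2, LPCAT1 and PLA2G4A are far from 0 in the panels with A549, and LPCAT2 reaches -5.78 in the last panel.

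Between parental lines, 7 of the 10 genes differed for HCC827 against A549, 9 for NCI-H358 against A549 and 9 for NCI-H358 against HCC827, where 57.1%, 57.9% and 52.6% of all genes did. Parental NCI-H358 exceeded both other parental lines in LPCAT2 (4.55 over HCC827, adjusted p = 1.04e-16, and 2.67 over A549, adjusted p = 5.63e-14) and in GPCPD1 (1.02 and 1.06, adjusted p = 4.93e-06 and 2.55e-06). Parental NCI-H358 was also called above HCC827 and A549 in PLA2G4A (1.75 and 0.63), CHKA (0.64 and 1.07) and GPD2 (0.29 and 0.52). It was called below both in LPCAT3 (-0.60 and -0.78) and PCYT1A (-0.74 and -0.89). Parental HCC827 led in LPCAT1, by 2.96 over A549 (adjusted p = 2.53e-16). Between mesenchymal lines, 8, 9 and 6 genes differed in the same order of pairs, where 56.6%, 58.8% and 52.6% of all genes did. The widest gap there was in PLA2G4A, which was 3.38 lower in mesenchymal HCC827 than in mesenchymal A549 (adjusted p = 1.34e-12).

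The remaining genes of the same routes were read from 4 lists, with the 10 genes left out. Their counts stand beside the shares over all genes, which for A549, HCC827 and NCI-H358 were 16.6%, 20.8% and 21.5% higher and 26.8%, 25.0% and 19.8% lower. Among 6 other lysophospholipid acyltransferases, 2 were higher and 3 lower in A549, 2 higher and 4 lower in HCC827, and 1 higher and 1 lower in NCI-H358. MBOAT1, which acylates lysophosphatidylserine and lysophosphatidylethanolamine, fell in all lines with log2 fold changes of -2.27, -1.83 and -2.66 in A549, HCC827 and NCI-H358. MBOAT2, which acts on lysophosphatidylethanolamine and lysophosphatidylcholine, rose by 1.52, 1.71 and 0.45 on the log2 scale. The median log2 fold change of the 6 was -0.044, -0.49 and -0.061.

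Of 11 other genes of choline uptake and phosphatidylcholine synthesis, 1 was higher and 4 lower in A549, 0 higher and 5 lower in HCC827, and 2 higher and 4 lower in NCI-H358. The choline transporter-like genes SLC44A2 and SLC44A3 were the named members, chosen by size and direction in at least 2 lines. SLC44A2 had log2 fold changes of -1.70 in HCC827 and -1.68 in NCI-H358, both called, with -0.33 in A549 (adjusted p = 0.122, and 0.00516 without A549 parental replicate 3). SLC44A3 had log2 fold changes of -2.52 in HCC827, -1.87 in NCI-H358 and -0.35 in A549, where the call (adjusted p = 0.0174) was lost without A549 parental replicate 1 or mesenchymal replicate 1 (0.0559 to 0.0727). The median over the 11 genes was -0.090, -0.10 and -0.020 in A549, HCC827 and NCI-H358.

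Of 29 other phospholipases, lysophospholipases and glycerophosphodiesterases in the table, 6 were higher and 2 lower in A549, 4 higher and 8 lower in HCC827, and 3 higher and 6 lower in NCI-H358. PLA2G16 (now PLAAT3), a phospholipase A and acyltransferase of adipose tissue, fell with log2 fold changes of -0.86, -2.77 and -2.24 in A549, HCC827 and NCI-H358. The list's medians were 0.040, -0.052 and 0.023.

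Of 25 other genes of glycerol and glycerol 3-phosphate, 5 were higher and 9 lower in A549, 7 higher and 7 lower in HCC827, and 8 higher and 8 lower in NCI-H358. GPAM, the mitochondrial acyltransferase that commits glycerol 3-phosphate to glycerolipid synthesis, had the largest rise in the 4 lists, with log2 fold changes of 4.18, 3.49 and 2.77. Its mean level went from 8.46 to 12.63 in A549, from 8.42 to 11.91 in HCC827 and from 7.62 to 10.39 in NCI-H358. The phosphatidate phosphatase gene LPIN1 fell in A549 (-1.31) and HCC827 (-1.13) and had 0.17 in NCI-H358 (adjusted p = 0.0366, lost without NCI-H358 parental replicate 1 or 3 or mesenchymal replicate 1 or 3, at 0.0633 to 0.164). The glycerol channel gene AQP3 fell in A549 (-1.58) and NCI-H358 (-2.83), with -0.33 in HCC827 (adjusted p = 0.265).

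**Figure D5:**
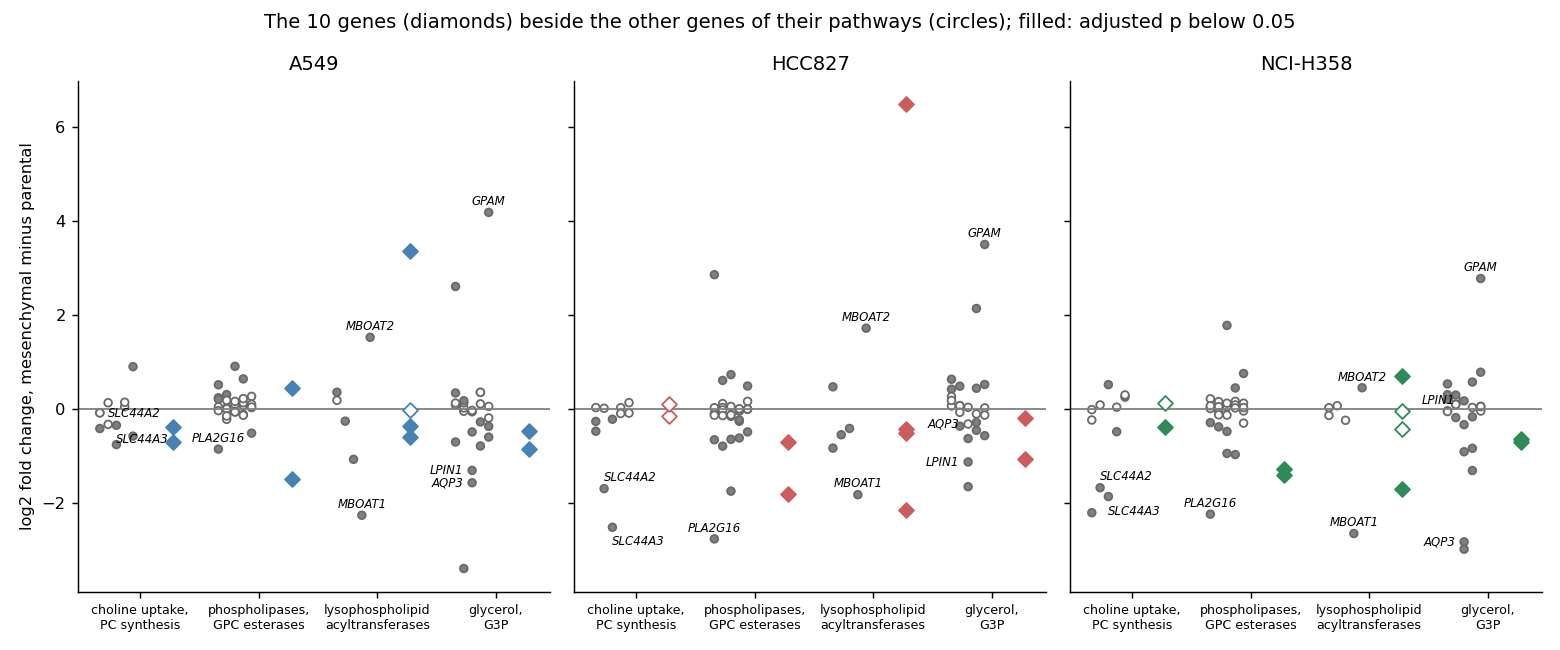
Log2 fold change upon EMT (y axis) in A549, HCC827 and NCI-H358 of the 10 genes (diamonds) and of the other genes of 4 lists (circles, x axis), filled where the adjusted p is below 0.05, with the genes chosen by the rule labelled. GPAM is at the top of the glycerol list in each line (4.18, 3.49 and 2.77), MBOAT1 and PLA2G16 are low, and most circles lie near 0.

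Likeness of pattern was described by Pearson's r over the 18 arrays for the 4 genes whose group means spanned more than 2 log2 units, and these r values also hold the differences between lines and states that all genes share. The closest to LPCAT2 were NAP1L3 (r = 0.979) and NUDT9 (r = 0.977), and to LPCAT1 NDUFA7 (r = 0.976) and TBC1D30 (r = 0.974). The closest to PLA2G4A were PVRL2, now NECTIN2 (r = 0.977), and WRB, now GET1 (r = 0.961), and to GPCPD1 CPNE8 (r = 0.956) and TMCO6 (r = 0.954). The spans of these genes were unlike, with 6.24 log2 units for TBC1D30 and 0.54 for NUDT9, so a like pattern did not mean a like size.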

How the data were processed

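Gene expression was measured on 18 arrays of 6 groups, 3 arrays each. RMA normalization was done by the authors, who deposited 1 log2 level per gene and array. The rule that chose the probe set, the annotation version and the genome build are not given in the sources used here, and other probe sets were not analysed here. Of the 19849 gene IDs, 19326 matched the RefSeq gene table, which gave current symbols.

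All arrays were fitted together with limma (version 3.58.1, R 4.3.3; functions lmFit and eBayes), with 6 groups and no covariate, so that every gene has 1 SD across groups. The contrasts were mesenchymal against parental within a line, differences of these between lines, and lines within a state, and a gene was called at a Benjamini-Hochberg adjusted p below 0.05 over all 19849 genes. No filter was set. The fit was run on simulated data with independent noise, with 100 genes changed 2-fold and 100 changed 4-fold, alike in each line. It recovered 99, 100 and 99 of the former in A549, HCC827 and NCI-H358, and all 100 of the latter. Far fewer genes changed there than were called in the real data. The run therefore checks that the fit works and gives no error rate for these data. Arrays have no sequencing depth, and 3 arrays per group limit the precision. The table gives no detection calls, so no floor was set.

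The named genes were all 10, and, from each list, at most 3 higher and 3 lower genes called with a fold above 2 in the same direction in at least 2 lines. The 10 genes and all lists were chosen with earlier results of these data known. Promoters came from RefSeq (GRCh38.p14). Alternatives were other thresholds, centring, renewed quantile normalization, robust and trended eBayes, and a filter on dim genes. Further ones were a fit per line, Student's t-test and leaving out arrays. The study names limma for its arrays and Student's t-test as its default elsewhere. Metabolite measurements were not used here.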

Additional observations from a re-analysis of the deposited data

Results flagged for a closer look

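The change upon EMT differed between lines in 20 instances over the 10 genes, each an interaction contrast in the limma fit of 18 arrays with an adjusted p below 0.05. The values are differences of log2 fold changes.

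Between HCC827 and A549 (the HCC827 change minus the A549 change), the differences were -1.78 for LPCAT1, 3.13 for LPCAT2 (adjusted p = 5.00e-12), -2.27 for PLA2G4A, 0.80 for GPCPD1 (adjusted p = 0.0027), 0.56 for CHKA (adjusted p = 0.000612), 0.47 for PCYT1A (adjusted p = 0.0389) and 0.28 for GPD1L (adjusted p = 0.0175). GPCPD1 and CHKA fell less in HCC827 than in A549. The GPD1L difference was lost without HCC827 mesenchymal replicate 1 (adjusted p = 0.0544). The PCYT1A difference was lost without A549 parental or mesenchymal replicate 1, HCC827 parental replicate 1 or 3, or HCC827 mesenchymal replicate 1 or 2 (adjusted p 0.0651 to 0.109).

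Between NCI-H358 and A549, the differences were -1.33 for LPCAT1, -2.65 for LPCAT2 (adjusted p = 3.40e-11), 0.55 for LPCAT3 (adjusted p = 0.0020), -1.72 for PLA2G4A, 0.32 for CHKA (adjusted p = 0.0300) and 0.50 for PCYT1A (adjusted p = 0.0283). The CHKA difference was lost without A549 parental replicate 1 or 3, A549 mesenchymal replicate 3, NCI-H358 parental replicate 1, or NCI-H358 mesenchymal replicate 1 or 2 (adjusted p 0.0508 to 0.0888), with centred arrays (0.29, adjusted p = 0.0561) and with renewed quantile normalization (0.22, adjusted p = 0.141). The PCYT1A difference was lost without A549 parental or mesenchymal replicate 1, NCI-H358 parental replicate 1 or 2, or NCI-H358 mesenchymal replicate 1 or 3 (adjusted p 0.0547 to 0.0792).

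Between NCI-H358 and HCC827, the differences were 0.45 for LPCAT1 (adjusted p = 0.000598), -5.78 for LPCAT2, 0.39 for LPCAT3 (adjusted p = 0.0239), -0.72 for GPCPD1 (adjusted p = 0.00654), -0.44 for GPD1L (adjusted p = 0.000739), 0.36 for GPD2 (adjusted p = 0.0161) and 0.54 for PLA2G4A (adjusted p = 0.0399). GPCPD1 and GPD1L fell more in NCI-H358, while LPCAT1 and GPD2 fell more in HCC827. The LPCAT3 difference was lost without HCC827 parental replicate 2, HCC827 mesenchymal replicate 2 or 3, NCI-H358 parental replicate 1 or NCI-H358 mesenchymal replicate 3 (adjusted p 0.0506 to 0.0574). The PLA2G4A difference was lost without HCC827 parental replicate 1 or 2, HCC827 mesenchymal replicate 2, NCI-H358 parental replicate 1 or 2, or any 1 of the 3 NCI-H358 mesenchymal arrays (adjusted p 0.0548 to 0.115).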

How the results depend on the processing

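No direction of a called value for the 10 genes reversed under any alternative run. With a fold above 2 also required, the called genes went from 8617 to 1592 in A549, from 9093 to 2278 in HCC827 and from 8211 to 1862 in NCI-H358, and those among the 10 from 9 to 2, from 8 to 4 and from 7 to 3. At an adjusted p below 1e-05 and a fold above 5, 378, 585 and 430 genes were called, with 1, 1 and 0 of the 10. Of the differences HCC827 minus A549, NCI-H358 minus A549 and NCI-H358 minus HCC827, 2650, 2530 and 2181 genes passed with a fold above 2 (main counts 8379, 8503 and 7516), with 3, 3 and 1 of the 10, and 579, 597 and 409 passed the stricter rule, with 1 of the 10 in each. Centring moved the share of higher among called genes in A549 from 38.3% to 48.9%, and the median log2 fold change of all genes from -0.021 to 0.047.

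The first parental array of each line carries a number in its title apart from the others. Without these 3 arrays, the calls upon EMT of PCYT1A in A549 (adjusted p = 0.109) and LPCAT4 in HCC827 (0.0956) were lost. So were the differences of PCYT1A between HCC827 and A549 (0.217) and between NCI-H358 and A549 (0.127), of CHKA between NCI-H358 and A549 (0.129), and of GPD2 (0.0750) and PLA2G4A (0.175) between NCI-H358 and HCC827. The difference of CHKA between NCI-H358 and HCC827 was gained (0.0396). The parental difference of GPD2 between HCC827 and A549 was lost as well (0.0951).

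No paired analysis was possible because the labels give no replicate numbers shared between groups. Student's t-test, which is the study's default but not the test it names for its arrays (limma), was run on the same values. At an unadjusted p below 0.05 it called 9040 (A549), 8645 (HCC827) and 8917 (NCI-H358) genes, with 8, 7 and 8 of the 10. After Benjamini-Hochberg adjustment it called 7290, 6879 and 7142, with 7, 6 and 7 of the 10. Lost before and after adjustment were PCYT1A in A549 and LPCAT4 in HCC827, and lost after it alone were PLA2G4A in A549 and GPD1L in HCC827. LPCAT4 in NCI-H358 was gained before adjustment alone (adjusted p = 0.103). How far array background limits low levels was not tested, since no detection call was used here. Among the 10 genes, such levels include parental HCC827 LPCAT2, mesenchymal A549 GPCPD1 and PCYT1A throughout. Some genes of the lists read as low, among them PLA2G4C and ENPP2 in parental cells.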

Other observations

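Some genes of the 4 lists lay outside the rule for naming and were picked after their values were seen, and their calls were not recomputed with arrays left out. GK, glycerol kinase, which makes glycerol 3-phosphate from glycerol, was called higher in each line, with log2 fold changes of 2.60 (A549), 0.63 (HCC827) and 0.53 (NCI-H358; limma adjusted p = 4.11e-11, 0.00064 and 0.00315). PLA2G4C, a relative of PLA2G4A, was also called higher in each line (0.90, 0.72 and 1.77, adjusted p = 1.22e-05, 9.67e-05 and 2.76e-09). SLC44A1, a choline transporter-like gene, was called lower in each (-0.42, -0.48 and -2.21, adjusted p = 0.0465, 0.0233 and 6.05e-09). AGPAT9 (now GPAT3), a glycerol 3-phosphate acyltransferase, had -3.40 in A549 (adjusted p = 1.35e-13) beside 0.06 and 0.22 in HCC827 and NCI-H358. ENPP2, which encodes autotaxin and makes lysophosphatidic acid from lysophosphatidylcholine, had 2.85 in HCC827 (adjusted p = 1.32e-10) beside 0.51 in A549 and 0.21 in NCI-H358. Some of these levels were low. The parental means in A549, HCC827 and NCI-H358 were 4.63, 4.31 and 4.34 for PLA2G4C and 4.37, 4.55 and 4.40 for ENPP2. SLC44A1 went from 5.28 to 4.80 in HCC827, and parental HCC827 GK was 4.88. Whether array background limited these changes was not tested. No test of a difference between lines is given for these genes.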
